A study of Mus musculus with 6 samples.

Results

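The let-7 family was examined in C57Bl/6 mice, comparing livers of *Apcfl/fl* with those of *Apc+/+* animals. The profiles came from NanoString, an assay that counts single miRNA molecules by the barcode of the probe bound to them. Members were taken by name, as the probes for the guide strands mmu-let-7a, mmu-let-7b, mmu-let-7c, mmu-let-7d, mmu-let-7e, mmu-let-7f, mmu-let-7g, mmu-let-7i and mmu-miR-98, written below without the species prefix. There were 9 such probes among the 566 for mouse miRNAs, and each named 1 miRNA. The 3 *Apcfl/fl* mice carried a hypomorphic *Apc* allele on both chromosomes and had Wnt/β-catenin-dependent hepatocarcinoma (HCC), and the 3 *Apc+/+* mice had normal liver and no tumour. RNA came from fresh frozen liver tissue, so each profile mixes the cell types of the tissue, and the share of tumour cells in it is not known. No Cre recombinase is named for these mice. Age, sex and whether mice shared a litter or cage are not given in the sources used here, so that p-values measure only the spread between these samples. The mouse miRNA counts of a liver summed to between 82942 and 133331.

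MiRNAs of the let-7 family guide the silencing complex to mRNAs that pair with the seed, bases 2 to 8 of the mature strand. They accumulate as cells differentiate, repress growth-promoting mRNAs such as those of RAS proteins, HMGA2 and MYC, and are held back in embryonic and many tumour cells by the RNA-binding proteins LIN28A and LIN28B. The members are made from many genes, some of them transcribed together with one another or with miR-99, miR-100 and miR-125, and their mature strands differ in a few bases outside the seed.

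The 9 mature sequences are shown because the members differ so little. They were read from RefSeq (assembly GRCm38.p6), where all 9 were matched by name, and are written 5′ to 3′ with the seed in capitals.
let-7a: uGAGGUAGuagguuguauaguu
let-7b: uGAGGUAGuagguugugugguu
let-7c: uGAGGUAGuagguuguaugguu
let-7d: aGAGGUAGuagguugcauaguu
let-7e: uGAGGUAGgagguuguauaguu
let-7f: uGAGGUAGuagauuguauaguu
let-7g: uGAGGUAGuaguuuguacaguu
let-7i: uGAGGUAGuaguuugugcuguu
miR-98: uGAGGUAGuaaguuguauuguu

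All 9 strands were 22 bases long and shared 1 seed. Counted from 1 at the 5′ end, with the base of let-7a first, let-7c differed from let-7a by A19G, let-7e by U9G and let-7f by G12A. Let-7b carried A17G and A19G, let-7d carried U1A and U16C, let-7g carried G12U and U18C, and miR-98 carried G11A and A19U. Let-7i was the farthest from let-7a, with G12U, A17G, U18C and A19U. Over the 36 pairs of members the number of differing bases ran from 1 to 6, and 4 pairs differed by 1 base. Whether a probe also captures a neighbour that differs by so few bases was not tested. MiR-1961, which has the same seed and a probe on the panel, stayed under the background limit in all 6 livers and is not counted in the family.

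Every member was well above background. The limit was set in each liver as the mean plus 2 SD of the 33 probes for viral miRNAs and lay between 13.1 and 27.8 counts, whereas the lowest deposited count of any member was 50 (miR-98, *Apc+/+* liver 3) and the highest 4352 (let-7c, *Apcfl/fl* liver 3). All 9 members were among the 100 most abundant mouse miRNAs in each liver. Together they held 11.4%, 9.76% and 6.44% of the mouse miRNA counts in *Apc+/+* livers 1, 2 and 3 and 8.87%, 10.1% and 12.3% in *Apcfl/fl* livers 1, 2 and 3. The share averaged 9.21% ± 2.54 in *Apc+/+* mice against 10.4% ± 1.76 in *Apcfl/fl* mice (SD, n = 3 each), and the livers of the 2 genotypes overlapped (two-sided exact permutation test, p = 0.5, where 3 mice against 3 cannot go below 0.1). *Apc+/+* liver 3 was the lowest, and in it the probe for miR-720 alone took 33% of the counts, against 15.7% to 25.7% in the other livers. With miR-720 left out of the total it was still the lowest (9.61%, against 11.3% to 14.6%), and the genotypes differed by 1.43 percentage points in place of 1.21. With miR-122 left out as well, the direction turned, to -1.75 percentage points (16.8% in *Apc+/+* against 15.0% in *Apcfl/fl* mice). Without *Apc+/+* liver 3 the difference between the genotypes went from 1.21 to -0.17 percentage points.

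Counts were also scaled between livers with edgeR's TMM factors, and values on that scale are called normalized counts. The normalized sum of the family reached 11955, 11142 and 10544 in *Apc+/+* livers 1 to 3, and 7692, 10963 and 10733 in *Apcfl/fl* livers 1 to 3, with *Apcfl/fl* liver 1 below all the others. Its mean was 11214 ± 708 (SD, n = 3) and 9796 ± 1826 (SD, n = 3), a log2 ratio of -0.19 of *Apcfl/fl* over *Apc+/+* that was no larger than the spread (p = 0.4, exact permutation test, two-sided). Without 1 liver this ratio ran from -0.29 (*Apcfl/fl* liver 3 left out) to -0.04 (*Apcfl/fl* liver 1 left out). It also depended on the scaling. It was positive (0.18) with the total count as library size and more negative (-0.34) when the 100 most abundant miRNAs set the scale, and in that last case every *Apcfl/fl* liver lay below every *Apc+/+* liver (p = 0.1 by the exact permutation test, the lowest that can be reached).

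The members did not share 1 direction. All 9 were tested, and fitted levels were below those of *Apc+/+* for 4 members and above for 5, with log2 fold changes from -0.90 (let-7g) to 1.04 (let-7i) and a median of 0.31, beside 0.01 over the 174 mouse miRNAs tested. These medians were 0.27 and 0.21 without *Apc+/+* liver 3, and 0.14 and -0.037 without *Apcfl/fl* liver 2. No member reached an adjusted p-value under 0.05 in edgeR's quasi-likelihood test, nor did any of the other tested miRNAs (0.0% of the 174 in each direction). At an unadjusted p-value under 0.05, 2 members were lower (let-7a and let-7g), where 10.9% of all tested miRNAs were, and 1 was higher (let-7i), where 13.8% were. That made 3 members in either direction, beside 24.7% of all tested miRNAs. DESeq2 gave let-7a, let-7g and let-7i an adjusted p-value under 0.05, as it did 17% of the 171 miRNAs for which it returned one, and limma gave it to 0 members and 0.0% of the tested miRNAs. Normalized counts of the 2 genotypes did not overlap for let-7a, d, f and g, all lower in *Apcfl/fl* liver (18.4% of all tested miRNAs), and for let-7b and i, both higher (14.9%), or 33.3% of all tested miRNAs in either direction. As a plain percentage of the mouse miRNA counts, 3 members (let-7b, e and i) had values that did not overlap, all higher in *Apcfl/fl* liver, beside 24.7% of all tested miRNAs in either direction.

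**Figure D1:**
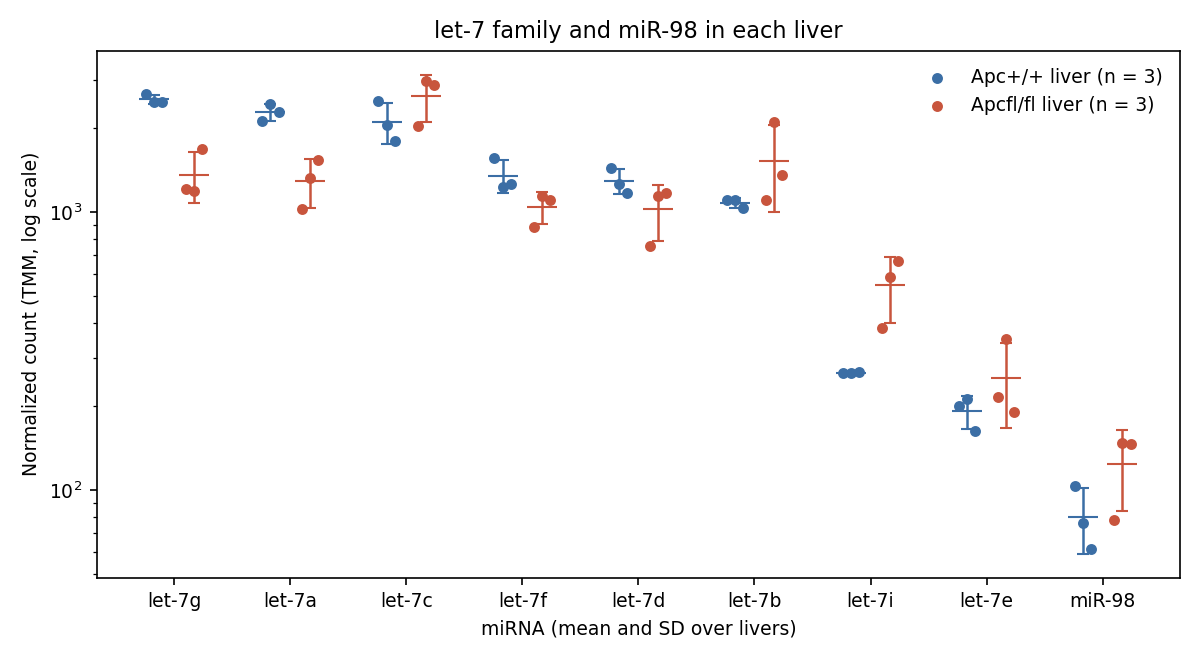
Normalized count (log axis) of each family member in the 3 *Apc+/+* livers (blue) and the 3 *Apcfl/fl* livers (red), with the mean and SD of each genotype. Let-7g and let-7a lie lower in every *Apcfl/fl* liver and let-7i lies higher in every one, while let-7c, let-7e and miR-98 overlap.

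Let-7g, a single-gene member whose hairpin lies within *Wdr82* on chromosome 9, was the most abundant member in *Apc+/+* liver. *Apc+/+* mice had normalized counts of 2659, 2499 and 2489, and *Apcfl/fl* mice of 1207, 1191 and 1691 (livers 1, 2 and 3 in this order here and in what follows). Every *Apcfl/fl* liver lay below every *Apc+/+* liver, with liver 3 the closest to them. The means were 2549 ± 95.8 and 1363 ± 284 (SD, n = 3 each), a 1.87-fold lower level (log2 fold change -0.90, standard error 0.21, 95% confidence interval -1.39 to -0.42, edgeR adjusted p = 0.056).

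Let-7a, the member by which the family is usually represented, was at 2124, 2441 and 2293 normalized counts in *Apc+/+* mice against 1022, 1326 and 1541 in *Apcfl/fl* mice. Here too the groups were apart, and *Apcfl/fl* liver 1 was the lowest. The level was 1.76-fold lower (log2 fold change -0.82, standard error 0.21, 95% confidence interval -1.31 to -0.32, edgeR adjusted p = 0.068). The edgeR adjusted p-values of let-7a and let-7g were 0.049 and 0.046 without *Apcfl/fl* liver 3, the liver that lay closest to the controls, and between 0.079 and 0.23 for both without any other single liver.

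Let-7i, whose gene on chromosome 10 has no other family member beside it, differed in the other direction. It was at 264, 264 and 266 normalized counts in *Apc+/+* mice against 384, 586 and 665 in *Apcfl/fl* mice. The 3 *Apc+/+* values were close together (264.7 ± 0.846, SD, n = 3), and the *Apcfl/fl* values (545 ± 145, SD, n = 3) were spread over a wider range above them. The level was 2.06-fold higher (log2 fold change 1.04, standard error 0.25, 95% confidence interval 0.45 to 1.63, edgeR adjusted p = 0.059), and it had the same direction in all 16 alternatives of the processing, as did let-7a and let-7g. Let-7i differs from let-7g by A17G and A19U (let-7g base first), and the pair had the most different fold changes in the family.

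The other 6 members had 95% confidence intervals that included 0. Let-7b, at 1105, 1102 and 1031 normalized counts in *Apc+/+* against 1108, 2117 and 1364 in *Apcfl/fl* mice, had a log2 fold change of 0.50 (95% confidence interval -0.12 to 1.13). Its groups did not overlap, but *Apcfl/fl* liver 1 was level with the controls, and without *Apcfl/fl* liver 2, the highest, the log2 fold change was 0.25. Let-7c, at 2502, 2050 and 1797 against 2040, 2958 and 2858, had overlapping groups and a log2 fold change of 0.31 (-0.23 to 0.85) that was 0.46 without *Apcfl/fl* liver 1. Let-7e was at 200, 213 and 163 against 216, 350 and 192, with a log2 fold change of 0.39 (-0.30 to 1.09) that was 0.14 without *Apcfl/fl* liver 2.

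MiR-98, the least abundant member, was at 103, 76.1 and 61.4 normalized counts in *Apc+/+* against 78.3, 148 and 146 in *Apcfl/fl* mice, with overlapping groups and a log2 fold change of 0.63 (95% confidence interval -0.24 to 1.5). Let-7d and let-7f were both a little lower with TMM, but let-7d was at a log2 fold change of 0.030 with the total count as library size, and let-7f at 0.050 when no count minimum was set. Let-7d had 1437, 1264 and 1176 normalized counts against 753, 1146 and 1168, and its log2 fold change was -0.34 (-0.88 to 0.20). Let-7f had 1561, 1232 and 1268 against 883, 1141 and 1109, and its log2 fold change was -0.37 (-0.84 to 0.09). In both, *Apcfl/fl* liver 1 was the lowest and the other *Apcfl/fl* livers lay closer under the lowest *Apc+/+* liver. Leaving out *Apcfl/fl* liver 1 gave -0.15 for let-7d and -0.26 for let-7f on the log2 scale, and let-7f was at -0.24 without *Apc+/+* liver 1. None of these 6 had an adjusted p-value under 0.05 in any alternative.

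**Figure D2:**
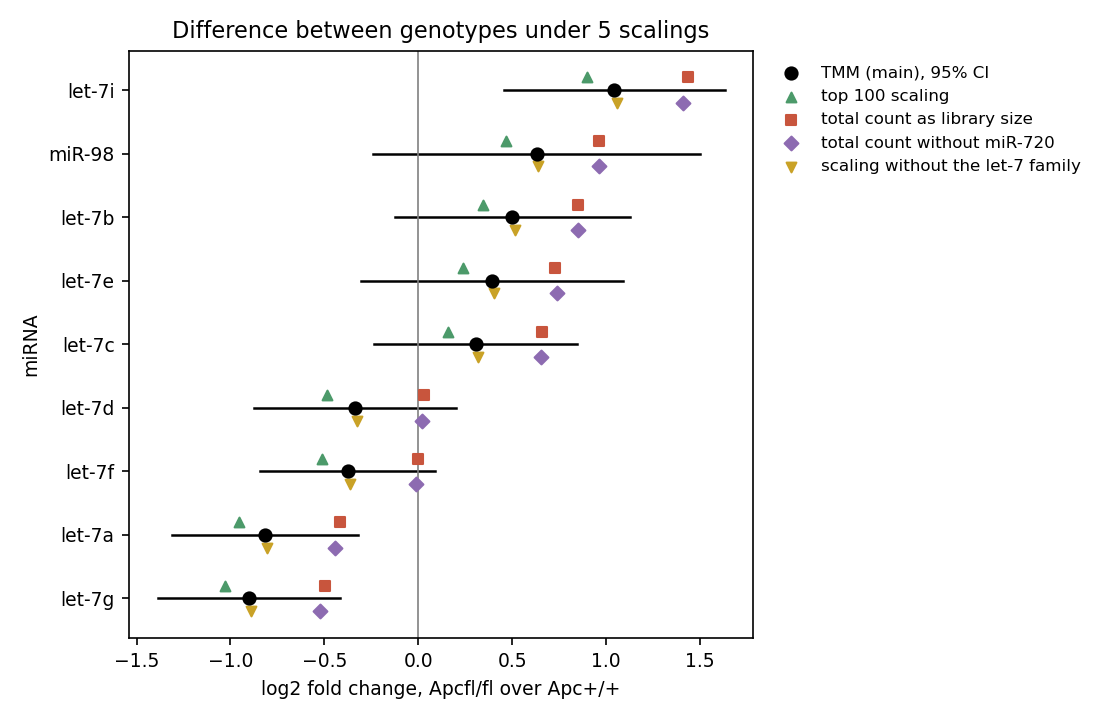
Log2 fold change of *Apcfl/fl* over *Apc+/+* liver for each member with TMM scaling (black, with 95% confidence interval) and with 4 other scalings (coloured symbols). The scalings move all members by a similar step, which takes let-7d across 0 with the total count, and the order of the members is the same, from let-7g at -0.90 to let-7i at 1.04 with TMM.

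With the total count as library size the 174 tested miRNAs had a median of 0.45 in place of 0.01 on the log2 scale, and those of let-7g, let-7a and let-7i were then -0.50, -0.42 and 1.44. Since the scaling between livers moved all members at once, the composition of the family was compared next. The share of each member in the family sum of its own liver needs no scaling. For 7 of the 9 members the shares of the 2 genotypes did not overlap, against 32.8% of the 174 tested miRNAs when their counts were divided by the same family sum. The smallest p-value that 3 mice against 3 allow is 0.1 (two-sided exact permutation test). Each of these 7 members had it, as groups without overlap always do, so it adds nothing to the count. The 9 shares add up to the whole and so are not independent of one another.

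Let-7g made up 22.2%, 22.4% and 23.6% of the family counts in *Apc+/+* mice against 15.7%, 10.9% and 15.8% in *Apcfl/fl* mice. Let-7a made up 17.8%, 21.9% and 21.7% against 13.3%, 12.1% and 14.4%. Their mean shares differed by -8.65 and -7.23 percentage points, the largest deficits among the 9 members. Let-7d was also lower in share, by a smaller step, at 11.5% ± 0.454 against 10.4% ± 0.551 (SD, n = 3 each). It overlapped when let-7c, the most abundant member over the 6 livers together, was left out of the sum.

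Let-7c made up 20.9%, 18.4% and 17% against 26.5%, 27% and 26.6%. Its share was thus nearly equal in the 3 *Apcfl/fl* livers and above every *Apc+/+* value, although its normalized count overlapped between the genotypes. Let-7b made up 9.24%, 9.89% and 9.78% against 14.4%, 19.3% and 12.7%. Let-7i made up 2.21%, 2.37% and 2.52% against 4.99%, 5.35% and 6.2%, and miR-98 made up 0.71% ± 0.144 against 1.24% ± 0.197 (SD, n = 3 each). Let-7e (1.71% ± 0.187 against 2.6% ± 0.73) and let-7f (12% ± 0.998 against 10.7% ± 0.645) had overlapping shares (two-sided exact permutation test, p = 0.2 each). With let-7c left out of the sum the share of let-7e was higher without overlap.

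Put together after the values had been seen, and so given without a test, let-7a, d, f and g held 65.1%, 66.7% and 68.5% of the family counts in *Apc+/+* mice against 50.3%, 43.8% and 51.3% in *Apcfl/fl* mice. Let-7b, c, e, i and miR-98 held the rest. The order of the members by count differed accordingly. Let-7g was first in all 3 *Apc+/+* livers and let-7c was first in all 3 *Apcfl/fl* livers, and let-7b held rank 6 in each *Apc+/+* liver and ranks 3, 2 and 4 in *Apcfl/fl* livers 1, 2 and 3. Let-7i, let-7e and miR-98 held ranks 7, 8 and 9 in all 6 livers. In *Apc+/+* liver the shares of let-7a and let-7c overlapped, as did those of let-7f and let-7d. In *Apcfl/fl* liver those of let-7b, let-7g and let-7a overlapped, as did those of let-7f and let-7d. In *Apcfl/fl* liver 2 let-7g (10.9%) lay just above let-7d (10.5%) and let-7f (10.4%). Such an order is one of counts, since probes can differ in how well they capture their miRNA.

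**Figure D3:**
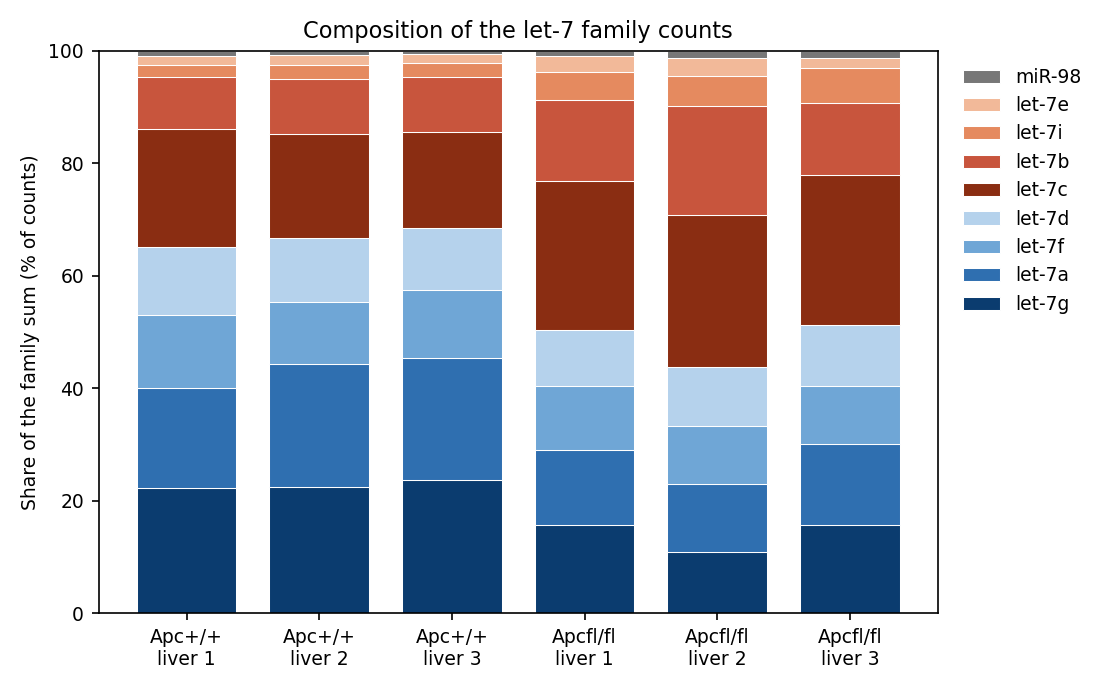
Share of each member in the summed counts of the family (percent), 1 bar for each liver. The blue members (let-7g, a, f, d) fill 65.1% to 68.5% of the *Apc+/+* bars and 43.8% to 51.3% of the *Apcfl/fl* bars.

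The ratio of 2 members within a liver is free of both the scaling and the family sum. Of the 36 pairs, 24 had ratios that did not overlap between the genotypes, where 27.3% of all 15051 pairs of tested miRNAs did. The pairs share members and are not independent, and the ratios were added after the values of the members had been seen. The count of let-7i for each count of let-7g was 0.0993, 0.106 and 0.107 in *Apc+/+* mice against 0.318, 0.492 and 0.393 in *Apcfl/fl* mice, a 3.8-fold higher ratio (log2 difference 1.93). This was the greatest difference among the 36 pairs.

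Of the 4 pairs that differ by 1 base, 2 had ratios that did not overlap. The ratio of let-7c to let-7a (A19G) was 1.18, 0.84 and 0.784 in *Apc+/+* mice against 1.99, 2.23 and 1.85 in *Apcfl/fl* mice, 2.2-fold higher. The ratio of let-7e to let-7a (U9G) was 0.0943, 0.0873 and 0.0711 against 0.212, 0.264 and 0.124, 2.28-fold higher. The ratio of let-7f to let-7a (G12A) was 1.38-fold higher with overlapping groups (two-sided exact permutation test, p = 0.2). Let-7c and let-7b, which differ by A17G (let-7c base first), had overlapping ratios, at 2.26, 1.86 and 1.74 counts of let-7c for each count of let-7b against 1.84, 1.4 and 2.1 (log2 difference -0.15, two-sided exact permutation test, p = 0.5).

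**Figure D4:**
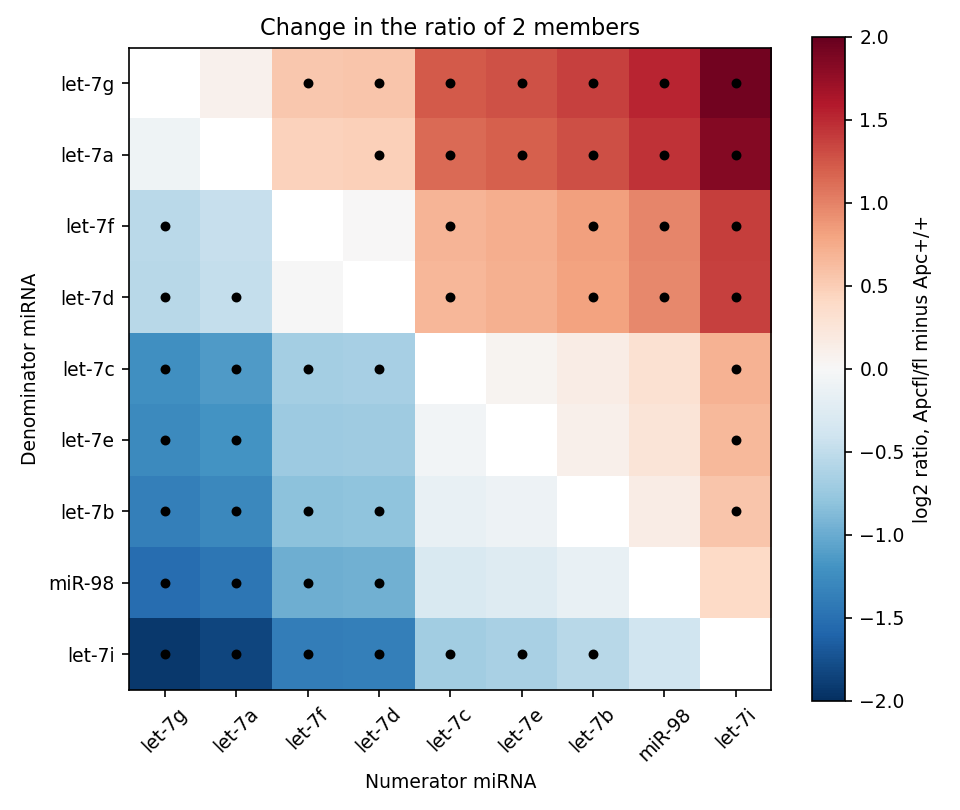
Difference between the genotypes in the log2 ratio of 2 members (column over row), with a dot where the ratios of the 3 *Apcfl/fl* and 3 *Apc+/+* livers do not overlap. The deepest colour is let-7i over let-7g (1.93), and pairs within let-7c, e, b and miR-98 are pale and carry no dot.

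The members were then laid out by gene cluster, in the gene order of RefSeq (assembly GRCm38.p6). No build is named for the counts, so chromosomes and neighbours are given without positions. Let-7a, let-7c and let-7f are each made from a pair of genes in different clusters, and their probes cannot tell these sources apart. On chromosome 13, *Mirlet7a-1*, *Mirlet7f-1* and *Mirlet7d* are consecutive miRNA genes, and the log2 fold changes of their mature strands were -0.82, -0.37 and -0.34. On chromosome 15, *Mirlet7c-2* and *Mirlet7b* lie within the long non-coding RNA gene *Lncppara*, and their strands had 0.31 and 0.50. On the X chromosome, *Mirlet7f-2* and *Mir98* lie within *Huwe1*, and let-7f and miR-98 had -0.37 and 0.63.

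Of the 5 miRNAs from clusters shared with the family, 2 were higher and 2 lower at an unadjusted p-value under 0.05 (13.8% and 10.9% of all tested miRNAs), and none had an adjusted p-value under 0.05 with edgeR. DESeq2 gave miR-125a-5p, miR-99b and miR-125b-5p adjusted p-values of 0.0034, 0.0074 and 0.0034, where 17% of miRNAs were under 0.05, and over the 16 alternatives they were under 0.05 in 7, 6 and 3. The cluster on chromosome 17 within *Spaca6* holds *Mir99b*, *Mirlet7e* and *Mir125a*. MiR-99b had 46.3, 54.8 and 45 normalized counts in *Apc+/+* against 115, 262 and 96.3 in *Apcfl/fl* mice, a 3.21-fold higher level (log2 fold change 1.68, standard error 0.44, edgeR adjusted p = 0.069). MiR-125a-5p, which is known to target ERBB2, had 136, 204 and 135 against 432, 718 and 276, a 3-fold higher level (log2 fold change 1.58, standard error 0.39, edgeR adjusted p = 0.064). Both had groups that did not overlap, while let-7e between them had a log2 fold change of 0.39 with overlapping groups. All 3 were highest in *Apcfl/fl* liver 2.

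In the cluster of *Mir100*, *Mirlet7a-2* and *Mir125b-1* on chromosome 9, the strands other than let-7a were also lower. MiR-125b-5p, which is made here and from *Mir125b-2* on chromosome 16, had 1173, 1317 and 934 normalized counts in *Apc+/+* against 575, 506 and 694 in *Apcfl/fl* mice, a 1.93-fold lower level (log2 fold change -0.95, standard error 0.22, edgeR adjusted p = 0.056). MiR-100 had 69.8, 64.2 and 59.4 against 13.8, 22.6 and 38.3 (log2 fold change -1.37, standard error 0.47, edgeR adjusted p = 0.13), and in 1 of the 6 livers its deposited count was under the background limit. On chromosome 16, beside *Mirlet7c-1* and *Mir125b-2*, *Mir99a* gave a log2 fold change of -0.43 (95% confidence interval -1.0 to 0.13), against 0.31 for let-7c. MiR-99a had 212, 199 and 198 normalized counts against 186, 132 and 134, lower without overlap, as were 18.4% of all tested miRNAs. The log2 fold change of miR-99a was -0.29 without *Apcfl/fl* liver 2 and -0.026 with the total count as library size.

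**Figure D5:**
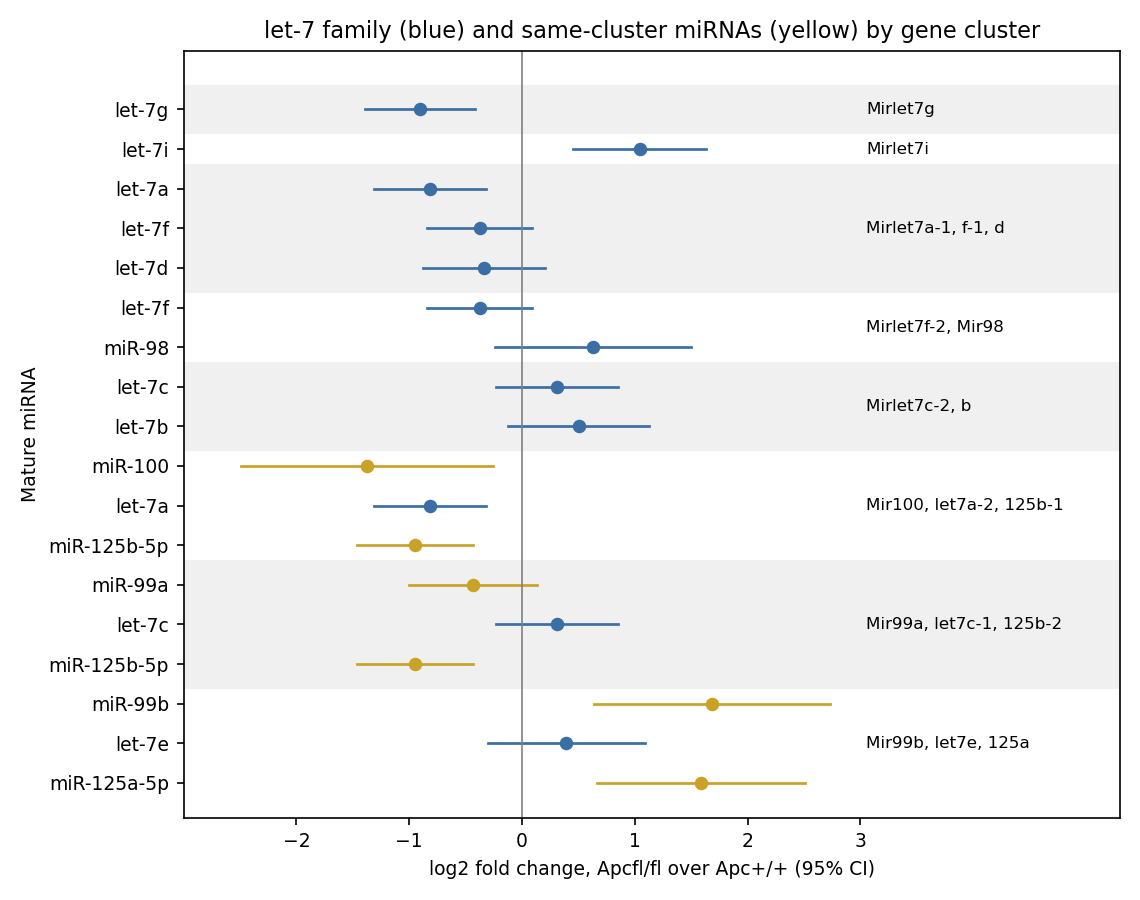
Log2 fold change with 95% confidence interval for the family (blue) and the miRNAs that share its gene clusters (yellow), grouped by cluster, with miRNAs made from a pair of genes drawn in both. The point estimates of the *Mir99b*, *Mirlet7e*, *Mir125a* cluster lie to the right of 0 (0.39 to 1.68), but the interval of let-7e crosses 0 (-0.30 to 1.09). Those of the *Mir100*, *Mirlet7a-2*, *Mir125b-1* cluster lie to the left (-1.37 to -0.82).

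Markers of the cell types in the tissue also differed between the genotypes, on the same normalized scale. MiR-122, the main miRNA of hepatocytes, took 6.94% to 28% of the mouse miRNA counts of the 6 livers, so the hepatocyte marker of the labelled tissue was present in each. The summed level of the 4 hepatocyte miRNAs, all above the limit in every liver, was 24678 to 39679 in *Apc+/+* against 8180 to 13995 in *Apcfl/fl* mice. Most of this sum was miR-122, and the other 3 miRNAs of the list came to 3071 to 3485 against 2164 to 2661. That of the 5 mesenchymal miRNAs (4 above the limit in every liver) was 894 to 1318 against 322 to 725, and that of the 2 endothelial miRNAs (both above it) 3585 to 3807 against 2764 to 3552. These 3 lists were lower without overlap on the normalized scale, as were 18.4% of single tested miRNAs (33.3% did not overlap in either direction). As a percentage of the mouse miRNA counts, the hepatocyte list alone stayed apart (23.6% to 30.7% against 9.43% to 14.1%). That separation came from miR-122 (20.2% to 28.0% against 6.94% to 11.6%), and the summed percentage of the other 3 miRNAs of the list overlapped. On that scale, an alternative added after the values were seen, 24.7% of single tested miRNAs did not overlap in either direction. The mesenchymal (0.722% to 1.15% against 0.372% to 0.833%) and endothelial lists (2.19% to 3.64% against 2.69% to 4.08%) overlapped. The 3 erythroid miRNAs (856 to 1404 against 796 to 4561, highest in *Apcfl/fl* liver 2), the 5 leucocyte miRNAs (172 to 369 against 243 to 637, with miR-142-5p at or under the limit in every liver) and the 5 biliary miRNAs (73.6 to 142 against 72.3 to 213, with miR-200c and miR-141 at or under the limit in every liver) overlapped. The leucocyte miRNAs differed among themselves. MiR-223 had deposited counts of 52, 60 and 62 against 135, 147 and 459 (log2 fold change 1.43, edgeR adjusted p = 0.072), while the log2 fold changes of miR-142-3p and miR-150 were 0.12 and -0.11. MiR-155 passed the count minimum only through a pair of *Apcfl/fl* livers and is given without a test. It stood at the floor of 1 in all 3 *Apc+/+* livers and in *Apcfl/fl* liver 1, and at 78.3 and 58.3 in *Apcfl/fl* livers 2 and 3. The part of cell type content in the levels of the let-7 members was not tested, and in whole tissue fewer cells of a type and less RNA per cell cannot be told apart.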

How the data were processed

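NanoString miRNA profiles of 3 *Apc+/+* and 3 *Apcfl/fl* livers were analysed, with genotype and replicate number taken from the sample labels. The values deposited by the authors are estimated counts per probe without scaling from liver to liver. Within a probe, values above 1 had the same decimals (in 584 of the 584 probes where this could be checked), as after subtraction of a constant, and 12.4% of values stood at a floor of 1. The software used is not given in the sources used here. Total mouse miRNA counts were 82942 to 133331 per liver. No liver was a duplicate of another of its genotype (lowest chi-square of counts over its degrees of freedom 17.2).

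The 174 mouse miRNAs whose deposited counts averaged 20 or more were rounded and compared with edgeR 4.0.16 in R 4.3.3 (quasi-likelihood test, TMM scaling, Benjamini-Hochberg adjustment over all 174, no replicate block). Normalized counts are deposited counts divided by the effective library size relative to its mean. The test used by the authors for this profile is not given in the sources used here. Shares, sums and ratios were compared with exact permutation tests (scipy 1.17.1). Every member was named. Other miRNAs were named if they share a gene cluster (with values if above the background limit in all livers, and miR-100, outside this, after its values were seen) or the seed, or bear on tissue or scaling. Passenger strands were not analysed here. Alternatives were DESeq2 1.42.0, limma 3.58.1, other scalings (the 100 most abundant miRNAs, total count with or without miR-720, TMM without the family), no count minimum or one of 60, viral probe subtraction (prior count 2 for limma), the replicate block and leaving out each liver. Members, lists and tests were chosen with earlier results of these data known. Every value column belonged to a sample (0 did not).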

Additional observations from a re-analysis of the deposited data

How the results depend on the processing

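Over the 16 alternatives let-7a, b, c, e, g, i and miR-98 kept their direction. Let-7a, g and i each had an adjusted p-value under 0.05 in 5 of them (highest 0.66, 0.57 and 0.18). Let-7d turned positive with scaling to the total count (0.030), to that total less miR-720 (0.018) and with no count minimum (0.10), and let-7f with no count minimum (0.050). The family sum turned positive with the total (0.18) and the total less miR-720 (0.17), was -0.34 with the top 100 scaling, and without 1 liver ran from -0.29 to -0.04. The median of the family was 0.66 with the total count, 0.66 without miR-720 in it, 0.74 with no count minimum and 0.16 with the top 100 scaling, and ran from 0.14 (without *Apcfl/fl* replicate 2) to 0.46 without 1 liver. The median of all tested miRNAs was 0.45, 0.40, -0.082 and -0.10 in these 4 settings, and ran from -0.037 to 0.21 without 1 liver. The difference in family share was -1.75 percentage points with miR-720 and miR-122 out of the total, and from -0.17 (without *Apc+/+* replicate 3) to 2.32 without 1 liver.

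Calls at an adjusted p-value under 0.05 by edgeR (0 higher and 0 lower, against 24 and 19 without the adjustment) numbered 20 and 9 with DESeq2, 1 and 6 with the top 100 scaling, 16 and 1 with the total count, 18 and 3 without miR-720 in it, 12 and 6 with the minimum of 60, and 12 and 7 with viral probe subtraction. Limma, scaling without the family and no count minimum gave 0. They numbered 0 to 11 higher and 0 to 8 lower without 1 liver, both highest without *Apcfl/fl* replicate 3. Members with shares that do not overlap numbered 6 (of 8, with let-7c out of the sum) to 9 and such pairs 25 to 28, where leaving out a liver by itself makes overlap rarer. The causes were not tested.

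Livers with the same replicate number showed little correlation in their deviations from the genotype means (-0.05, -0.06 and 0.13). Whether they shared a litter or batch is not known. With the replicate block 4 miRNAs were higher and 3 lower, and the family sum was -0.21. For let-7a, g and i the adjusted p-value was 0.086 under the block, and for miR-125a-5p it was 0.041. MiR-98, the member with the fewest counts, had the largest standard error (0.37).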
